A study of Mus musculus with 4 samples.

Results

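The genes described here encode proteins of the complement and blood clotting cascades, most of which the liver secretes into plasma. The list holds 37 genes, 17 of complement and 20 of coagulation and fibrinolysis, chosen by name from 18193 genes with a value. Of these, 34 had a value, 15 of complement and 19 of coagulation. C3, Cfd and Cpb2 are not analysed here. Each gene was read on 1 probe set, the one with the highest mean over the arrays.

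Liver RNA came from C57BL/6 mice, either wild type (WT) or Baf60a LKO, a knockout of Baf60a in the liver. Smarcd1 encodes BAF60a, which belongs to SWI/SNF, a complex that remodels chromatin. Mice of both groups received a high-fat diet from 6 weeks of age for 10 weeks and were fasted overnight before the livers were taken. A group comprised 2 arrays, and every array carried an independent pool of RNA. The number of mice in a pool and the Cre driver are not given in the sources used here.

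Complement and clotting are cascades of serine proteases that circulate as inactive precursors. Complement is started by antibody-bound C1, by mannose-binding lectins or by the alternative pathway, converges on C3, and ends in a pore built from the terminal components. Clotting proceeds through vitamin K dependent proteases to thrombin, which turns fibrinogen into fibrin, while antithrombin, protein C and plasmin limit or dissolve the clot. Hepatocytes make most of these proteins, and several of them, such as fibrinogen, belong to the acute phase response of the liver.

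The arrays hold log2 values made with robust multi-array average (RMA), and all differences below are Baf60a LKO minus WT on the log2 scale with the standard error of the limma fit. The targeted gene, Smarcd1, read 5.62 and 5.88 on the WT arrays against 5.34 and 5.30 on the Baf60a LKO arrays (difference -0.43 ± 0.14, limma adjusted p = 0.410). The genotype is not checked by this probe set, whose place relative to the deleted part is unknown. The arrays correlated at 0.987 to 0.996 over probe sets. The WT arrays correlated with each other at 0.991, less than WT replicate 2 did with the Baf60a LKO arrays (0.993 and 0.994). Among the 3698 genes with a mean level of at least 8, the range in which the members lie (a limit chosen after seeing the values), the median deviation from a gene's mean was -0.07 on WT replicate 1 and 0.02 to 0.03 on the other 3 arrays. These brighter genes had a median difference of 0.05 (0.0083 without WT replicate 1), so small positive differences are common at this level with all 4 arrays.

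No complement or coagulation gene passed the threshold of adjusted p under 0.05, and no member differed by more than 1.35-fold between the genotypes. The count was 0 of 34 by limma with Benjamini-Hochberg adjustment over all genes, beside 0.484% of all genes (88 of 18193). At an unadjusted p under 0.05 there were 4 members, Cfb and F12 higher and C1s1 and F5 lower, which is 11.8% of the 34 beside 10.2% of all genes (5.76% higher and 4.42% lower). Of the 88 genes, 43 were higher (0.236%) and 45 lower (0.247%). With a trended and robust variance model 1 member passed, C1s1, at an adjusted p of 0.0370. The count over all genes was 0 when WT replicate 1 was left out and 3 when WT replicate 2 was. It was 10 in the absence of Baf60a LKO replicate 1 and 17 in that of replicate 2.

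The 95% intervals of the fit, not adjusted for the number of genes, bound what these arrays allow. Over the 34 members they ran from -0.71 to 0.68, so a change of more than 1.64-fold in the array values lay outside the interval of every measured member. This is not a bound on RNA, since a probe set can understate a difference. Car3, from a marker list, differed by -1.24 on its brightest probe set and by -2.79 to -2.67 on its dimmer ones. Whether the members' bright probe sets do so was not tested. An exact permutation test of a single value cannot go below p = 0.333 with 2 arrays against 2, and none is given.

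Of the 34 members, 23 were higher and 11 lower in Baf60a LKO. The higher share was 67.6%, beside 50.1% of all genes and 63.8% of those with a mean level of at least 8. In 19 both Baf60a LKO arrays lay above both WT arrays, in 5 they lay below, and in 10 the groups overlapped. Separation upward therefore held for 55.9% of the members, beside 22.8% of all genes and 34.6% of the genes with a mean level of at least 8. Separation downward held for 14.7%, beside 19.6% and 17.9%. Without WT replicate 1, the array on which bright genes read low, 23 members were again higher (67.6%), beside 52.2% of the genes with a mean level of at least 8. With that array left out 19 members separated upward (55.9%), beside 36.8% of all genes and 39.9% of the brighter ones, and 10 separated downward (29.4%), beside 33.9% and 35.6%. Fewer arrays overlap less often, so these shares are read only against each other. The genes with a mean level of at least 8 are dimmer on average than the members, so their shares are not matched in level. The downward count of 5 was 7 to 10 with 1 array left out.

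**Figure D1:**
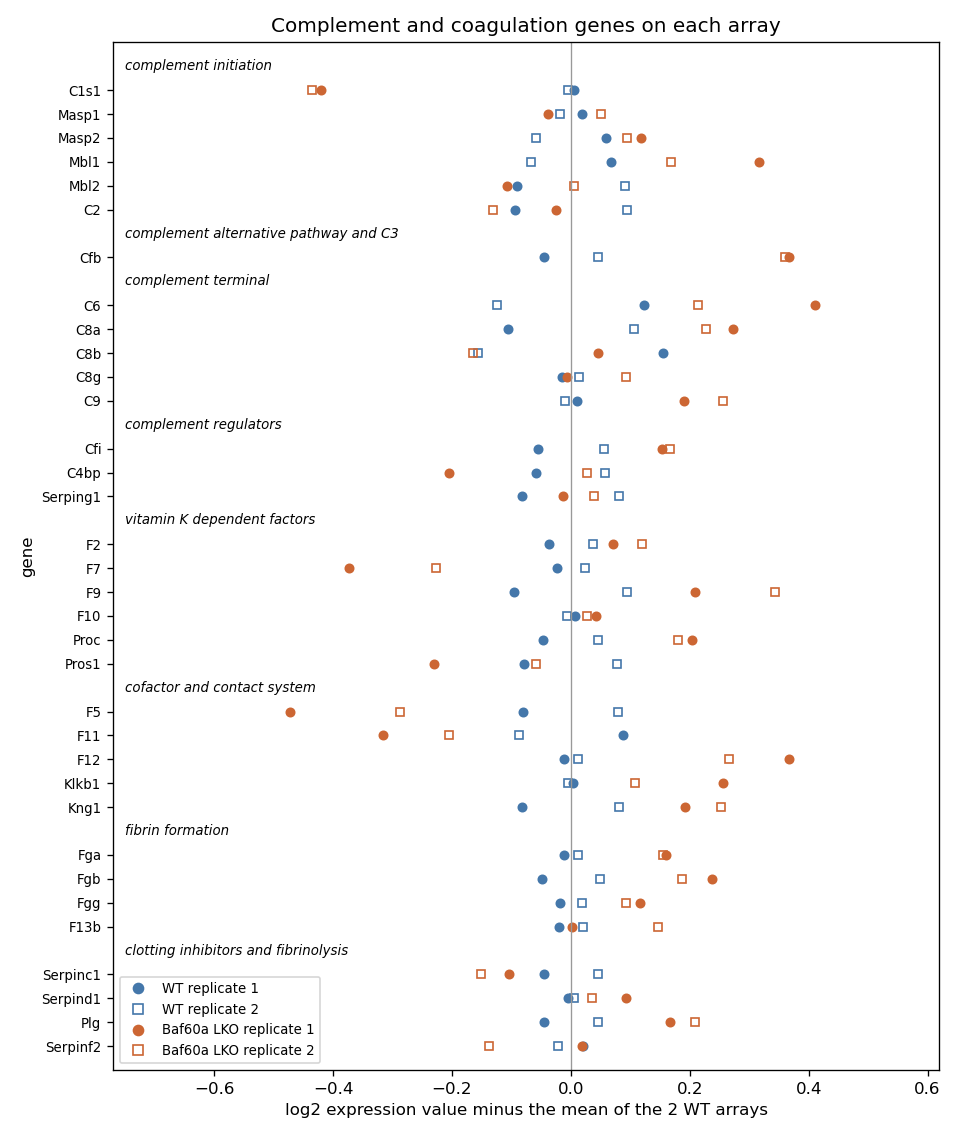
Each row is a measured complement or coagulation gene, grouped by role, and the x axis gives its log2 value on each of the 4 arrays minus the mean of the 2 WT arrays (blue WT, orange Baf60a LKO, filled circles replicate 1, open squares replicate 2). In 19 rows both orange points lie right of both blue points, and in 5 they lie left.

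Set against each other, the 15 complement genes had a median difference of 0.04 and the 19 coagulation genes one of 0.10, beside 0.05 for the genes with a mean level of at least 8. Complement differences ran from -0.43 to 0.36 and coagulation differences from -0.38 to 0.32, so the ranges nearly coincided. Of the complement genes 10 were higher and 5 lower, and of the coagulation genes 13 were higher and 6 lower. The complement median minus the coagulation median was -0.05. It turned to 0.04 without WT replicate 1, when complement stood at 0.10 and coagulation at 0.06, and it was -0.0149 without Baf60a LKO replicate 1. These arrays thus give no settled order of complement and clotting.

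**Figure D2:**
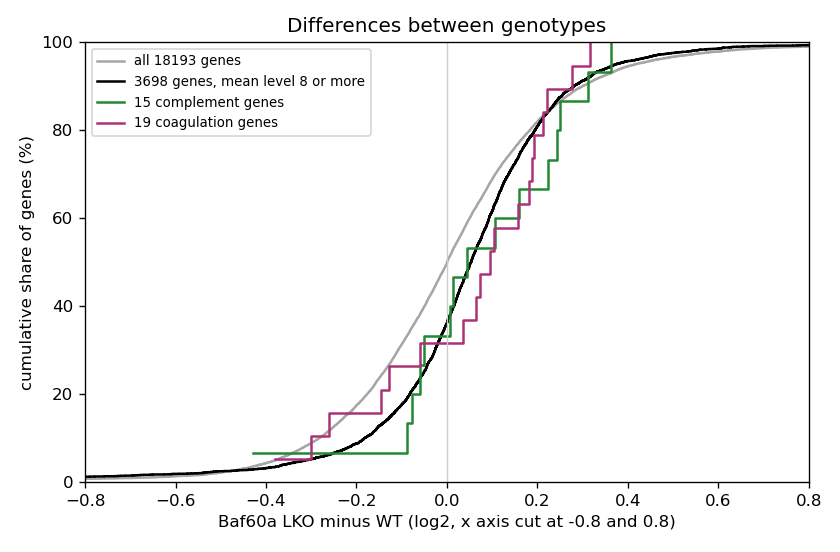
The curves give the cumulative share of genes, in percent, against Baf60a LKO minus WT on the log2 scale, for all 18193 genes (grey), 3698 genes with a mean level of at least 8 (black), 15 complement genes (green) and 19 coagulation genes (purple). The x axis ends at -0.8 and 0.8. The members' curves span -0.43 to 0.36, and their medians are 0.04 and 0.10 beside 0.05 for the black curve.

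Among the genes that start complement, C1s1 stood apart with the largest difference of all members. C1s1 encodes a C1s protease of the C1 complex, which cleaves C4 and C2 once C1 has bound antibody. Its values were 11.17 and 11.16 in WT and 10.75 and 10.73 in Baf60a LKO. Replicates differed from each other far less than the groups did, and the difference of -0.43 ± 0.11 corresponds to a 1.35-fold lower level (limma, adjusted p = 0.321, 95% interval -0.71 to -0.15). With 1 array left out it ran from -0.44 to -0.42. C1ra, which encodes the partner protease C1r and comes from a list of other pathway genes, read 10.87 and 10.81 in WT and 10.49 and 10.45 in Baf60a LKO (-0.36 ± 0.11, adjusted p = 0.404). Both proteases of C1 were thus lower on both Baf60a LKO arrays, by similar amounts and short of the threshold. The probe set of C1s1 is an _s_at set, a kind that can also bind related transcripts, and no other probe set of the gene has a value here.

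The stretch before the start of C1s1 is shown because this gene differed most. It is taken from RefSeq's GRCm38.p6 promoter table, on the minus strand of chromosome 6, and covers bases 120 to 34 before the annotated start, stopping short of the gene's annotated span. Capitals mark a match to TTNNGNAAT, a motif of the C/EBP type, searched on both strands.
C1s1 (chr6:124542393-124542479): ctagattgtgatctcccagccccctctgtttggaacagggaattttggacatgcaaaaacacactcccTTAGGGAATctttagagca
In the 250 bases before the start this motif was found in 5 of the 26 measured members with a promoter entry (C1s1, C6, C9, F13b and Klkb1), and in 10.2% of all 32851 promoters in the table. These 5 did not share a direction, since C6, C9 and Klkb1 were higher, C1s1 lower and F13b overlapping.

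The other initiating genes differed less. Mbl1, one of the mannose-binding lectins that recognise microbial sugars, read 11.52 and 11.39 in WT and 11.77 and 11.62 in Baf60a LKO (0.24 ± 0.13, adjusted p = 0.562). Its groups did not overlap, but the gap between the nearest arrays was smaller than that between the WT arrays. Mbl2, the other mannose-binding lectin gene, overlapped, at 11.74 and 11.92 against 11.72 and 11.84 (-0.05 ± 0.13). The lectin-associated proteases Masp1 and Masp2 differed by 0.0062 ± 0.12 and 0.11 ± 0.12, and C2, the protease of the classical C3 convertase, by -0.08 ± 0.13. The sign of Masp1 turned to -0.02 after renewed quantile normalization and to -0.06 after cyclic loess. Of the 6 measured initiation genes 2 separated upward, 1 downward and 3 overlapped, with a median of -0.02. Of all genes 22.8% separated upward and 19.6% downward.

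Cfb, which encodes factor B, the protease of the alternative pathway C3 convertase, had the largest positive difference of all members. It read 11.28 and 11.37 in WT and 11.69 on both Baf60a LKO arrays. The groups were well apart, by 0.36 ± 0.12 or 1.29-fold (limma, adjusted p = 0.409, 95% interval 0.08 to 0.65), and 0.32 to 0.41 with 1 array left out.

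Of the 5 terminal components, whose products assemble into the membrane attack complex, 4 were higher and 1 lower. Among them 3 separated upward, beside 55.9% of all members and 22.8% of all genes. C6 read 10.21 and 9.96 in WT and 10.49 and 10.30 in Baf60a LKO (0.31 ± 0.15, adjusted p = 0.538). The lower Baf60a LKO array was close to the higher WT array, and the difference ran from 0.19 without WT replicate 2 to 0.44 without WT replicate 1. C9, the subunit that polymerises to form the pore wall, read 12.22 and 12.20 against 12.40 and 12.47 (0.22 ± 0.11, adjusted p = 0.559), with replicates closer than the groups. C8a, the alpha chain of C8, read 11.66 and 11.88 against 12.04 and 11.998 (0.25 ± 0.13, adjusted p = 0.560, and a difference of 0.14 without WT replicate 1). The beta and gamma chains had differences nearer 0. C8b read 10.34 and 10.03 in WT and 10.23 and 10.02 in Baf60a LKO (-0.06 ± 0.16), and C8g differed by 0.04 ± 0.12. Both overlapped, and their signs turned with 1 array left out (C8b -0.22 to 0.10, C8g -0.0062 to 0.09).

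The 3 measured regulators of complement differed by -0.09 to 0.16. Cfi, the protease factor I that degrades C3b and C4b, read 12.49 and 12.60 in WT and 12.70 and 12.71 in Baf60a LKO (0.16 ± 0.12, adjusted p = 0.658). C4bp, a cofactor of factor I, differed by -0.09 ± 0.14 and Serping1, the C1 inhibitor, by 0.01 ± 0.12. C4bp and Serping1 overlapped, and the sign of Serping1 turned to -0.02 and -0.0050 after renewed quantile and loess normalization.

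The vitamin K dependent factors, proteases or cofactors that need gamma-carboxylation, split by gene. F7, which starts clotting together with tissue factor, read 10.21 and 10.26 in WT and 9.86 and 10.01 in Baf60a LKO. Both Baf60a LKO arrays were lower, by a mean of 0.30 on the log2 scale with a standard error of 0.12 (adjusted p = 0.490). F9, the X-linked gene of the protease missing in haemophilia B, lay the other way, at 10.99 and 11.18 in WT and 11.29 and 11.42 in Baf60a LKO (0.28 ± 0.13, adjusted p = 0.548). Its difference was 0.18 without WT replicate 1 and 0.37 without WT replicate 2. F2, which encodes prothrombin, read 12.65 and 12.72 against 12.76 and 12.81 (0.10 ± 0.12, adjusted p = 0.786), a separation with a gap smaller than the spread of either group. F10, whose product activates prothrombin, was nearly level at 11.56 and 11.55 against 11.60 and 11.59 (0.04 ± 0.11). Proc, the anticoagulant protein C, read 12.06 and 12.15 against 12.31 and 12.29 (0.19 ± 0.12), while its cofactor Pros1 read 8.24 and 8.40 against 8.09 and 8.26 (-0.15 ± 0.13). Proc separated upward and Pros1 overlapped.

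Every measured gene of the contact system and the cofactor F5 separated between the groups, 3 upward and 2 downward. Of all genes 22.8% separated upward and 19.6% downward. F5, the cofactor with which factor X activates prothrombin, read 11.65 and 11.81 in WT and 11.26 and 11.44 in Baf60a LKO (-0.38 ± 0.13, limma adjusted p = 0.441, 95% interval -0.71 to -0.05). A further probe set of F5 gave the same difference of -0.38, and leaving out 1 array gave -0.47 to -0.29. F11, the contact-phase protease that activates factor IX, read 8.47 and 8.29 against 8.07 and 8.18 (-0.26 ± 0.13, adjusted p = 0.553), so the higher Baf60a LKO array was close to the lower WT array. Without WT replicate 1 its difference was -0.17.

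The other contact genes were higher. F12, which encodes factor XII, the protease that starts contact activation, read 11.34 and 11.36 in WT and 11.72 and 11.62 in Baf60a LKO (0.32 ± 0.12, adjusted p = 0.462, 95% interval 0.03 to 0.61). Kng1, the kininogen from which bradykinin is released, read 12.62 and 12.79 against 12.90 and 12.96 (0.22 ± 0.12, adjusted p = 0.573), with a further probe set at 0.20 and a difference of 0.14 without WT replicate 1. Klkb1, plasma prekallikrein, read 10.61 on both WT arrays against 10.87 and 10.72 (0.18 ± 0.12). F12, its activator prekallikrein and its cofactor kininogen were thus all higher on both Baf60a LKO arrays, each short of the threshold, while F11, which circulates bound to kininogen, was lower.

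**Figure D3:**
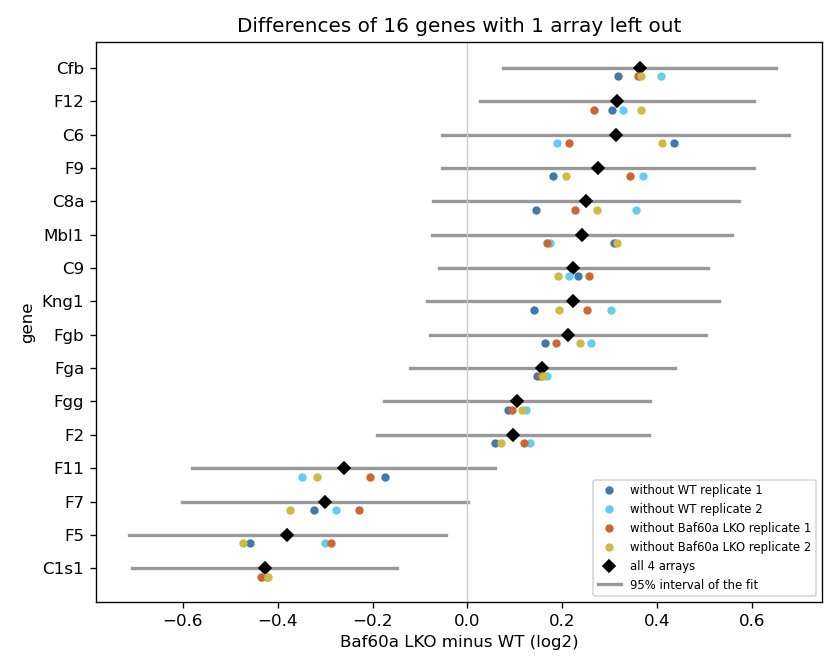
Diamonds give Baf60a LKO minus WT on the log2 scale for 16 members, grey lines the 95% interval of the limma fit, and coloured dots the difference with 1 of the 4 arrays left out. The dots of C1s1 nearly coincide near -0.43, those of C6 spread from 0.19 to 0.44, and none of the dots crosses 0.

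All 3 fibrinogen chains were slightly higher in Baf60a LKO, with groups that did not overlap. Upward separation held for 55.9% of all members, 34.6% of the genes with a mean level of at least 8 and 22.8% of all genes. Fibrinogen is a dimer of the alpha, beta and gamma chains, encoded by Fga, Fgb and Fgg side by side on chromosome 3. Fga read 12.58 and 12.60 in WT and 12.75 and 12.74 in Baf60a LKO, a difference of 0.16 ± 0.11 (adjusted p = 0.647). For Fgb the values were 13.14 and 13.24 against 13.43 and 13.38 (0.21 ± 0.12, adjusted p = 0.571), and for Fgg 13.08 and 13.11 against 13.21 and 13.19 (0.10 ± 0.11, adjusted p = 0.761). The differences kept their sign under the 12 other settings tried, but each was within 2 standard errors of 0 and none exceeded 1.16-fold. F13b, the carrier subunit of the factor XIII transglutaminase that cross-links fibrin, overlapped at 0.07 ± 0.12.

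The sequences before the 3 fibrinogen starts are shown because all 3 neighbouring genes were higher in Baf60a LKO. They are from RefSeq's GRCm38.p6 promoter table, each ending at the base before the annotated start, with Fga and Fgg on the plus strand and Fgb on the minus strand. Capitals mark GTTAAT, a motif of the HNF1 type, and CTGGGAA, the core of the interleukin-6 response motif known from fibrinogen genes, each on either strand.
Fga (chr3:83026033-83026152): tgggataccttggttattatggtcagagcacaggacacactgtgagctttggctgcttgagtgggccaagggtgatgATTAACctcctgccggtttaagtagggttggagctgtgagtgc
Fgb (chr3:83049864-83050043): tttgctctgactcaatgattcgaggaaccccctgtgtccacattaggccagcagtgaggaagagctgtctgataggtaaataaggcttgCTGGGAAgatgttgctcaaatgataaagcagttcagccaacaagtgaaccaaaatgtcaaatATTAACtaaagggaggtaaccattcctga
Fgg (chr3:83007604-83007723): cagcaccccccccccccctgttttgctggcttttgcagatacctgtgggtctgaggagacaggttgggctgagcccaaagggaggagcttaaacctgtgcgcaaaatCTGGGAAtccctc
The GTTAAT motif starts 43 bases before the Fga start and 29 bases before the Fgb start. The CTGGGAA motif lies 91 to 85 bases before the Fgb start and 13 to 7 bases before the Fgg start.

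Over 250 bases before the start, GTTAAT was present in 6 of the 26 measured members with an entry (C4bp, C8a, C8b, F13b, Fga and Fgb), and in 6.43% of all promoters. Of these 6 genes C8a, Fga and Fgb separated upward, while C4bp, C8b and F13b overlapped, where 55.9% of all members separated upward. CTGGGAA was present in 4 (F9, Fgb, Fgg and Masp2), beside 9.10% of all promoters. All 4 genes with CTGGGAA were higher in Baf60a LKO without overlap, at 0.28, 0.21, 0.10 and 0.11, none past the threshold, where 55.9% of all members and 34.6% of the genes with a mean level of at least 8 separated upward. TTCNNNGAA, the palindromic STAT motif, was present in 6 (C8a, F9, Fga, Fgb, Masp2 and Pros1), beside 7.02% of all promoters. In F9 and Masp2 it shares bases with the CTGGGAA match. Of these 6 genes 5 separated upward and Pros1 overlapped, beside the same 55.9% and 34.6% for upward separation. F9, Fgb and Masp2 carry both the CTGGGAA and the STAT motif, so these counts share genes.

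Among the clotting inhibitors and the genes of fibrinolysis, differences were small and in both directions. Serpinc1, antithrombin, read 12.68 and 12.78 in WT and 12.63 and 12.58 in Baf60a LKO (-0.13 ± 0.12, adjusted p = 0.723). Serpind1, heparin cofactor II, differed by 0.06 ± 0.11. Plg, which encodes plasminogen, the precursor of the fibrin-digesting protease plasmin, read 12.84 and 12.93 against 13.06 and 13.10 (0.19 ± 0.12, adjusted p = 0.605). Serpinf2, the plasmin inhibitor alpha-2-antiplasmin, overlapped at -0.06 ± 0.12. Plasminogen was thus separated upward and antithrombin downward, each within 2 standard errors of 0.

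Several members are direct or close neighbours in the genome, less than 20 kb apart in the RefSeq table. Outside the fibrinogen cluster the differences within each pair had opposite signs, although the signs of F10, C2 and C8b were not settled. Only members with a value were searched, so the place of C1ra relative to C1s1 was not looked up. F7 was at -0.30 ± 0.12 and the adjacent F10 at 0.04 ± 0.11. F11 was at -0.26 ± 0.13 and Klkb1, which arose from the same ancestral gene, at 0.18 ± 0.12. Cfb was at 0.36 ± 0.12 and its paralog C2 at -0.08 ± 0.13, while C8a was at 0.25 ± 0.13 and C8b at -0.06 ± 0.16. The differences within pairs carry no test, and each gene is read by its own probe set.

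**Figure D4:**
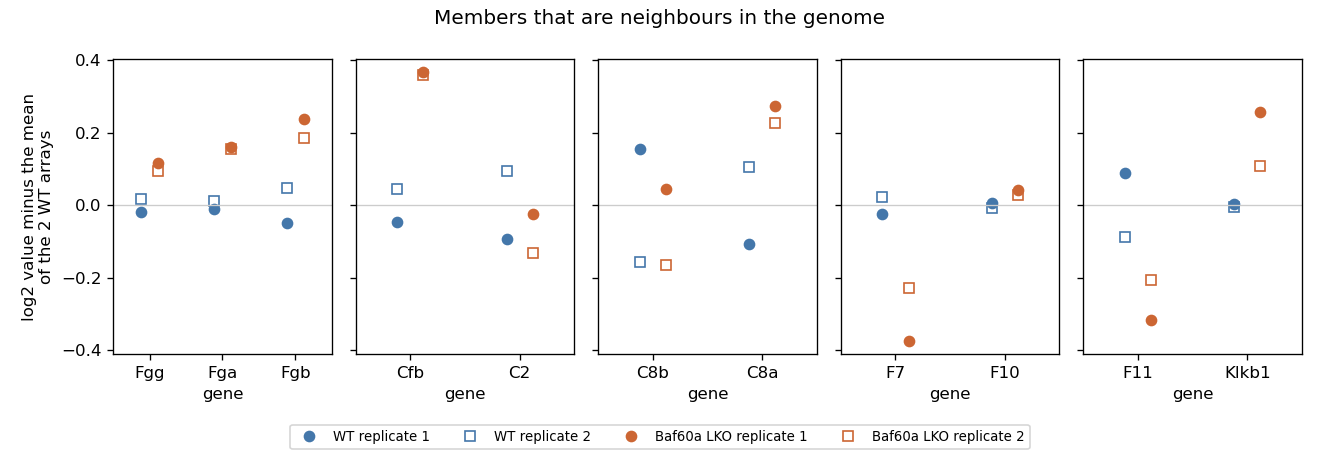
Panels give members that lie within 20 kb of each other, with the log2 value on each array minus the mean of the 2 WT arrays (blue WT, orange Baf60a LKO, filled circles replicate 1, open squares replicate 2). Orange points lie above blue for Fgg, Fga and Fgb, while F7 and F11 have orange points below blue beside neighbours at or above 0.

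Of the members, 6 had more than 1 probe set. For C2, F5, Kng1 and Masp2 the other probe sets had the sign of the one used, with Masp2 at 0.27 on the other against 0.11. For F10 the others read -0.03 and 0.23, and for Masp1 they ran from -0.11 to 0.18, so these genes have no settled sign.

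Of the other genes of both pathways 0 passed the threshold by limma. Of 24 other complement genes 16 were higher and 8 lower (2 at an unadjusted p under 0.05), with a median of 0.05. In this list 8 separated upward, 4 downward and 12 overlapped. Of all genes 10.2% had an unadjusted p under 0.05, 22.8% separated upward and 19.6% downward. Beside C1ra, the largest differences were those of Cpn1, a carboxypeptidase that inactivates anaphylatoxins (0.37 ± 0.13, adjusted p = 0.439), Cr1l, the mouse membrane regulator Crry (0.25 ± 0.12), and Cr2, a B cell receptor for C3d that is dim here (2.75 to 3.48). C5 itself, the gene Hc, differed by 0.05 ± 0.11.

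Of 28 other coagulation and fibrinolysis genes 16 were higher and 12 lower, with a median of 0.07. At an unadjusted p under 0.05 there were 4, all higher, beside 5.76% of all genes. In this list 12 separated upward, 7 downward and 9 overlapped, beside 22.8% upward and 19.6% downward of all genes. F3 and F2r, at 1.78-fold and 1.45-fold, differed by more than any member. F2r, the thrombin receptor PAR-1, read 8.61 and 8.53 in WT and 9.06 and 9.16 in Baf60a LKO (0.54 ± 0.12, limma adjusted p = 0.231), the lowest adjusted p of this list. Mcfd2, which with Lman1 carries factors V and VIII out of the endoplasmic reticulum, read 11.21 and 11.14 against 11.64 and 11.53 (0.41 ± 0.12, adjusted p = 0.364). Mcfd2 was thus higher on the arrays where F5 was lower, and Lman1 differed by 0.05 ± 0.11. Proz, protein Z, differed by 0.36 ± 0.14. F3, tissue factor, was dim and uneven, at 3.69 and 4.58 in WT and 5.04 and 4.89 in Baf60a LKO, and its difference of 0.83 ± 0.29 was 0.39 without WT replicate 1 and 1.28 without WT replicate 2.

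Acute phase genes of the liver differed more widely than the cascade genes. Of 24 measured, 2 rose and 22 did not pass, 19 were higher and 5 lower, and the median was 0.21. Saa1, an acute phase apolipoprotein, read 10.36 and 10.69 in WT and 12.40 and 12.97 in Baf60a LKO (2.16 ± 0.23, limma adjusted p = 0.0321, and 0.0508 with a replicate block). Saa2 read 9.10 and 9.57 against 11.73 and 12.46 (2.76 ± 0.29, adjusted p = 0.0321). With 1 array left out, neither passed, with differences of 1.88 to 2.44 and 2.40 to 3.13. Saa1 and Saa2 are near-identical, so their single values are uncertain. Saa3 and Saa4 differed by 0.37 ± 0.42 and 0.10 ± 0.13, with groups that overlapped. Orm2 was at 3.11 ± 0.57 (limma adjusted p = 0.156) and Apcs at 0.70 ± 0.16 (adjusted p = 0.246), while Hp, haptoglobin, was at 0.06 ± 0.12. Stat3, a mediator of interleukin-6, was at 0.23 ± 0.12. Il6ra, Il6st and Socs3, of the same pathway, overlapped at 0.02, -0.03 and -0.02. Further probe sets ran from -0.21 to 0.25 for Il6ra and Il6st and read 0.36 and 0.47 for Socs3. At an unadjusted p under 0.05 by limma, 7 of the 24 were higher and 1 was lower, beside 5.76% and 4.42% of all genes. The fibrinogen chains, at 0.10 to 0.21, lay within the quartiles of this list (0.02 and 0.40) and far from Saa1 and Saa2.

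Markers give the setting for these values, and their part in the members' differences was not tested. In whole liver, fewer cells of a type and less RNA per cell cannot be told apart. Of 9 measured hepatocyte markers none passed (1 at an unadjusted p under 0.05, Ambp), with a median of 0.08 and a range of -0.04 to 0.28. Their mean level was 13.27 and 13.31 in WT and 13.36 and 13.38 in Baf60a LKO. Alb, albumin, stood at 14.05 and 14.08 against 14.13 and 14.17, and Ahsg, fetuin-A, was at 0.25 ± 0.12, while Apoa1, Apoa2, Apob and Rbp4 lay between -0.04 and 0.02. The median size of a difference, whatever its sign, was 0.079 for these markers and 0.159 for the members. It was 0.141 for all genes and 0.116 for those with a mean level of at least 8. Of the 11 measured hepatocyte transcription factors none passed, with 7 higher and 4 lower. Prox1 was at 0.38 ± 0.20 (0.12 without WT replicate 1). Onecut1 (-0.47 ± 0.14), Foxa1 (-0.37 ± 0.14) and Cebpb (-0.36 ± 0.12) had unadjusted p under 0.05, and Hnf4a was at -0.19 ± 0.11.

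Markers of other liver cells were mixed. Each of the 7 measured cholangiocyte markers had a positive difference on the probe set used (median 0.45), beside 50.1% of all genes. None passed the threshold, and their mean level was 3.79 and 3.97 in WT and 4.38 and 4.70 in Baf60a LKO. Other probe sets read -0.36 for Epcam (1.17 on the one used), -0.03 and 0.21 for Sox9 and 0.23 for Cftr. Medians were 0.09 for 8 Kupffer cell and macrophage markers, -0.11 for 8 endothelial markers, -0.03 for 8 stellate cell markers, 0.04 for 7 lymphocyte and neutrophil markers, and 0.02 for 5 megakaryocyte and platelet markers, none with a gene past the threshold. In the mixed list both neutrophil markers stood above the lymphocyte markers in their differences, with S100a8 at 0.89 ± 0.36 (4.90 and 5.87 against 5.97 and 6.58, adjusted p = 0.495) and S100a9 at 0.64 ± 0.32 (groups overlapping), beside -0.14 to 0.15 for the other 5. S100a9 read 5.30 and 6.22 in WT and 6.22 and 6.59 in Baf60a LKO. The part of neutrophils in the values of Saa1, Saa2 and Orm2 was not tested. Of 9 adipocyte markers 7 were lower, with a median of -0.31. Car3 fell (-1.24 ± 0.13, adjusted p = 0.0321, and short of the threshold with a replicate block or any 1 array left out). Its 3 other probe sets read -2.79 to -2.67. Cidec was at -1.11 ± 0.26 (adjusted p = 0.267). Adipoq and Lep were near background at 2.35 to 2.49 and 2.44 to 2.72, whereas Car3 read 12.15 to 13.53. The median of this list is therefore not read as a measure of adipocytes.

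**Figure D5:**
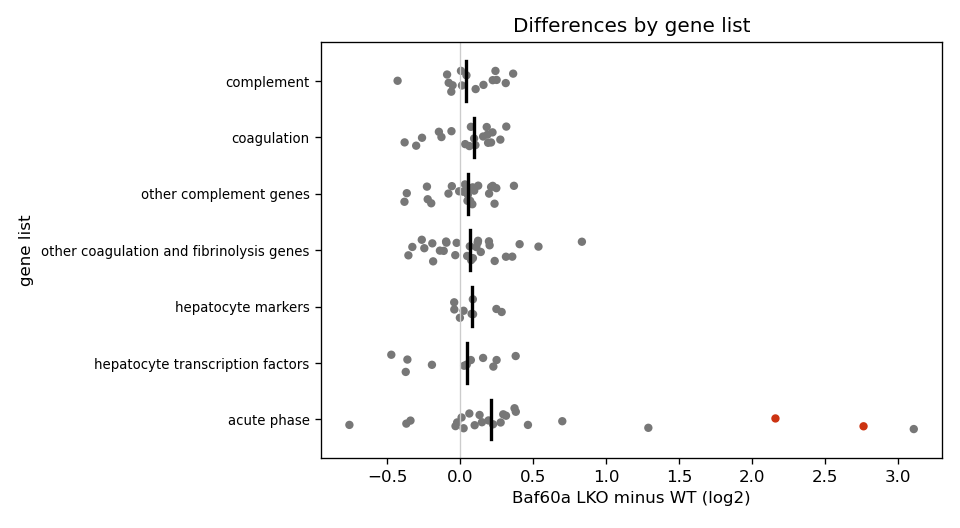
Each dot is a gene and the x axis gives Baf60a LKO minus WT on the log2 scale, with red for genes past the threshold and black bars for the median of each list (vertical scatter is for display). Complement and coagulation genes lie within -0.43 to 0.36, while the acute phase list reaches 3.11 and holds the 2 red dots, Saa1 and Saa2.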

How the data were processed

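Liver RNA of 4 pools was hybridised to Affymetrix mouse arrays. The authors deposited log2 values, 1 for each probe set of an array. Affy, RMA and limma appear in the submitters' processing notes, without versions, so the authors' values are taken as background corrected, quantile normalized and summarised. RMA compresses differences of dim genes. Arrays hold no read depth, and their number limits the precision. P-values and standard errors rest on the spread between pools, moderated by limma towards a variance shared over all genes. No standard error over all genes fell below 0.11, also where the pools of a group nearly coincided.

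Of 45101 probe sets, 64 controls were left out. The platform annotation gave 1 symbol to 34945, several to 932 and did not list 9160. Symbols were updated through Entrez numbers with RefSeq GRCm38.p6 (34741 matched). No filter on level was applied. Baf60a LKO was compared with WT by limma 3.58.1 under R 4.3.3 (lmFit, eBayes, 2-sided, Benjamini-Hochberg over 18193 genes, 2 residual and 3.54 prior degrees of freedom). Figures used matplotlib 3.10.9 in Python 3.11.15.

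The members and lists were chosen with earlier results of these data known. Lists carry no test of their own. Values in every sample are given for F2, Fga, Fgb, Fgg and the members with the largest differences whose groups do not overlap, 16 in all, and for others chosen after their values were seen. In other lists the text names genes past the threshold and up to 4 with the largest differences among those whose groups do not overlap. Further genes there (Hc, Lman1, Hp, Stat3, Il6ra, Il6st, Socs3, Saa3, Saa4, Hnf4a, Adipoq, Apoa1, Apoa2, Apob, Rbp4, S100a9, Sox9, Cftr) were chosen after their values were seen. Promoters were searched for 4 motifs. A member counts once if any of its promoter entries holds the motif, whereas the shares of all promoters are over entries.

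The fit was tested on simulated data for Baf60a LKO against WT with 18193 genes. It recovered 46.3% of 67 genes given a log2 change of 1 and 97.0% of 67 given a log2 change of 2. No complement or coagulation gene differed by as much as 1. The alternatives were 3 normalizations, the brighter 50% of genes, averaged probe sets, leaving out _x_at and _s_at probe sets, eBayes with trend and robust settings, a replicate block and leaving out each array. Counts of groups that do not overlap with each array left out were added after seeing the data.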

Additional observations from a re-analysis of the deposited data

How the results depend on the processing

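Over the 12 other settings, 26 of the 34 complement and coagulation genes kept the sign of their difference, and 8 turned it under at least 1 setting, all of them within 0.09 of 0. The number of members past the threshold was 0 under 11 settings and 1 with a trended and robust eBayes (C1s1), and that of other pathway genes was 0 under all 12. Over all genes, 142 passed after cyclic loess, 148 with array medians subtracted, 216 with a trended and robust eBayes, 19 with a replicate block, and 0 to 17 with 1 array left out, where fewer degrees of freedom remain. Of the members 19 to 22 separated upward and 7 to 10 downward with 1 array left out, beside 19 and 5 with all (an alternative chosen after seeing the data). With a replicate block no member passed (lowest adjusted p 0.402, limma). The replicate numbers were not taken as pairs, since deviations of same-numbered arrays correlated at 0.143 over genes and there are only 2 pairs. With array medians subtracted the median of all genes was 0.03. The complement median was 0.0034 after renewed quantile normalization, 0.020 after cyclic loess, 0.076 with array medians subtracted and 0.075 without _x_at and _s_at probe sets, where C1s1 has no value, and 0.045 to 0.095 with 1 array left out. The coagulation median was 0.13 with array medians subtracted and 0.059 to 0.12 with 1 array left out. Their difference was -0.069 after quantile and -0.066 after loess normalization, -0.021 without _x_at and _s_at probe sets, and -0.065 to 0.036 with 1 array left out, positive without WT replicate 1. Masp1 turned to -0.023 after quantile normalization, -0.058 after loess and -0.015 with averaged probe sets, and ran from -0.038 to 0.050 with 1 array left out. Serping1 turned to -0.023 and -0.0050 after quantile and loess normalization and ran from -0.069 to 0.095. With 1 array left out C2 ran from -0.17 to 0.016, C4bp from -0.21 to 0.027, C8b from -0.22 to 0.095, C8g from -0.0062 to 0.093, Mbl2 from -0.14 to 0.040 and Serpinf2 from -0.14 to 0.020. Among the genes of the other lists, the stellate cell marker Lrat turned from -0.17 to 0.071 with averaged probe sets. The cause was not tested.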
